A study of Mus musculus with 6 samples.

Results

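The genes described here are the 46 Wnt ligands, Frizzled and Lrp receptors, secreted and membrane antagonists and intracellular partners on the array, of 28786 gene names in all. They were taken by symbol: every Wnt, Fzd, Sfrp, Dkk, Kremen and Axin gene with a probe, and Lrp5, Lrp6, Lef1, Tcf7 and Wif1. Each gene is represented by its probe of highest mean signal. RNA came from Dnmt3a-null (KO) and wild type (WT) neural stem cells of the subventricular zones of mice at postnatal day 14 to 21, Dnmt3a being a DNA methyltransferase that methylates CpG sites anew. Differentiating cells had been replated with mitogens for 2 days and then kept without them for 3 days, whereas proliferating cells stayed as adherent monolayers in serum-free B27 medium with bFGF and EGF at 10 ng/ml. Each array set KO against WT RNA in opposite dyes, with 2 arrays of differentiating and 4 of proliferating cells, labelled as biological replicates. The labels do not say whether the deletion was constitutive or made by a Cre, nor how many mice went into a culture.

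Wnt proteins are secreted lipid-modified ligands that bind Frizzled (Fzd) receptors together with the co-receptors Lrp5 and Lrp6. Binding stops the Axin-containing complex from marking beta-catenin for destruction, and beta-catenin then works with Lef1 and Tcf7 family factors on DNA. Antagonists act outside the cell: Sfrp proteins and Wif1 bind the ligands, whereas Dkk1 binds Lrp5 and Lrp6 together with Kremen proteins. In the subventricular zone, the stem cell niche along the lateral ventricles, the pathway is known for its part in progenitor division and neuron production.

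Dnmt3a itself had log2 KO over WT ratios of -1.49 and -1.28 on the differentiating arrays, and of -1.11, -0.98, -0.64 and -1.097 on the proliferating ones. It was lower in KO cells on all 6 arrays (adjusted p = 0.0154 in differentiating and 0.0219 in proliferating cells, limma with Benjamini-Hochberg adjustment). The stem cell markers Nes and Sox2 were well above background in both genotypes on every array. Between 52.0% and 58.8% of probes per channel were well above background, no spot of a tested Wnt gene was saturated, and the number of arrays limits the precision. On proliferating replicates 3 and 4 the sex-linked genes Xist and Ddx3y differed between the channels (Xist -1.41 and -2.28, Ddx3y 2.41 and 2.94, log2 KO over WT), and the calls of Wnt genes, pathway lists and markers are also given without both arrays.

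Testing was limited to genes whose probe the scanner software called well above background, in KO or WT, on 2 or more arrays, and 32 of the 46 Wnt genes met this, against 18062 of the 28786 gene names. They were 11 of 19 ligands, all 12 receptors, 6 of 11 antagonists and 3 of 4 intracellular genes. The ligands Wnt2, Wnt2b, Wnt3a, Wnt8a, Wnt8b, Wnt10a, Wnt10b and Wnt16 were not well above background in any channel. The same held for the antagonists Dkk2, Dkk4, Kremen2 and Wif1 and for the transcription factor Lef1. Dkk1, the Lrp antagonist, was well above background on 1 differentiating array in KO and on 1 in WT cells, and on none of the proliferating arrays.

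Promoter sequences are shown for Wnt3 and Wnt9a, 2 ligands that differed between KO and WT cells, and for Fzd10, the receptor with the lowest fitted change after mitogen withdrawal. They are the windows of 250 bases before to 50 bases after the first start listed in RefSeq (build GRCm38.p6), and CpG sites, the sequence that Dnmt3a methylates, are in capitals. Methylation was not measured here. The Wnt3 window is chr11:103773925-103774224 on the plus strand, with 24 CpG sites.
Wnt3: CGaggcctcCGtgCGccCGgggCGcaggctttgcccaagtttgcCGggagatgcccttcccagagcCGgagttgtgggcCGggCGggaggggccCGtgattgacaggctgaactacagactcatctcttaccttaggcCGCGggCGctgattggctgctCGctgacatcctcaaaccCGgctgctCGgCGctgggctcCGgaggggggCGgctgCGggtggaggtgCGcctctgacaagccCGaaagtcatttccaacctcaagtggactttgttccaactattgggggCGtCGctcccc
The Wnt9a window is chr11:59306680-59306979 on the plus strand, with 58 CpG sites.
Wnt9a: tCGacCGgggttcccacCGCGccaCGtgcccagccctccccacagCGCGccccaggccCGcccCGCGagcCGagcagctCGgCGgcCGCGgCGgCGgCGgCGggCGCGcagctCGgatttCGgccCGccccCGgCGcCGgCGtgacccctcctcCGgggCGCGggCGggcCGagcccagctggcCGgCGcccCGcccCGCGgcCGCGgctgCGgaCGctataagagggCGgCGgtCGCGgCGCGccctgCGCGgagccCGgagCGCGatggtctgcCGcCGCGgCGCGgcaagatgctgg
The Fzd10 window is chr5:128600856-128601155 on the plus strand, with 45 CpG sites.
Fzd10: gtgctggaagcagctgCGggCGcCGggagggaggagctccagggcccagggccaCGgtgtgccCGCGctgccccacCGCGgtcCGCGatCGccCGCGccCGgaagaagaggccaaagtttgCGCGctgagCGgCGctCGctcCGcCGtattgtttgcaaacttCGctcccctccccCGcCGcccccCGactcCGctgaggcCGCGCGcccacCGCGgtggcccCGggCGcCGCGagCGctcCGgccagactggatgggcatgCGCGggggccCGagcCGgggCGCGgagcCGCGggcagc
Of the 46 genes, 30 had an entry, with a median of 28 CpG sites per window (range 6 to 58), against a median of 7 over 27025 genes, non-coding ones included. The median was 32 for the 19 of them that were tested and 18 for the 11 that were not. The word CTTTGAT, a core TCF/LEF binding word, searched on both strands, was found in the window of Wnt11 alone among the 30 (3.33%), against 3.72% of all windows.

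In differentiating cells the ligands Wnt7b and Wnt9a were higher and the ligand Wnt3 was lower in KO than in WT cells, with fold changes of 1.91 to 1.96. No receptor, antagonist or intracellular gene passed the test there. Among all genes tested, 2.18% were called higher and 0.902% lower in this comparison, beside 2 and 1 of the 32 Wnt genes. The median log2 ratio was 0.00 for the 32 Wnt genes and -0.01 for all genes tested, with 16 Wnt genes positive and 16 negative. An unadjusted p under 0.05 was found for 8 of the 32 Wnt genes, beside 3164 of all 18062 genes tested.

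Wnt7b, a ligand of the developing forebrain (probe at chr15:85618386-85618445, build mm7), had log2 KO over WT ratios of 1.09 and 0.85 on the differentiating arrays, and of 0.07, 0.59, 0.06 and 0.36 on the proliferating ones. All 6 ratios were above 0, and those of differentiating cells lay above all those of proliferating cells. The mean in differentiating cells was 0.97 ± 0.17 (SD, n = 2), or 1.96-fold higher in KO cells (adjusted p = 0.0170), and in proliferating cells 0.27 ± 0.25 (SD, n = 4; adjusted p = 0.163). Wnt9a (chr11:59414739-59414798) had ratios of 0.96 and 0.96 on the differentiating arrays, and of -0.16, -0.07, -0.14 and -0.22 on the proliferating ones. The conditions did not overlap, and the ratio was positive on both differentiating arrays and negative on all 4 proliferating arrays. Wnt9a was well above background on 2 of 4 proliferating arrays in KO and 3 of 4 in WT cells, so its proliferating ratios lie near background. Wnt9a averaged 0.96 ± 0.00016 in differentiating cells (SD, n = 2; 1.95-fold higher in KO, adjusted p = 0.0154) and -0.14 ± 0.06 in proliferating cells (SD, n = 4; adjusted p = 0.345). Its second probe was not well above background in any channel. Wnt3a, which lies next to Wnt9a in GRCm38.p6, was not well above background either.

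Wnt3, a ligand that acts through beta-catenin in many tissues (chr11:103925136-103925195), was the only Wnt gene called in both conditions. Its log2 ratios were -0.97 and -0.90 on the differentiating arrays, and -0.90, -1.26, -0.63 and -0.74 on the proliferating ones. All 6 ratios lay below 0, and the ranges of the conditions overlapped. Wnt3 was well above background on 2 of 4 proliferating arrays in KO cells and on all 4 in WT cells. The mean was -0.93 ± 0.05 in differentiating cells (SD, n = 2; 1.91-fold lower in KO, adjusted p = 0.0440) and -0.88 ± 0.27 in proliferating cells (SD, n = 4; 1.84-fold lower, adjusted p = 0.0363). A second Wnt3 probe gave -0.62 ± 0.01 in differentiating and -0.46 ± 0.28 in proliferating cells (SD, n = 2 and 4), in the same direction but not past the threshold (adjusted p = 0.0952 and 0.128). Wnt9b, the neighbour of Wnt3 in GRCm38.p6, averaged -0.11 ± 0.13 in differentiating and -0.05 ± 0.06 in proliferating cells (SD, n = 2 and 4; adjusted p = 0.617 and 0.763).

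Leaving out 1 array lowers the residual degrees of freedom of the ratio fit to 2, against 3 with all arrays. Without either differentiating array, the remaining one has no spread of its own and is assumed to vary like the proliferating arrays, and no gene of the 18062 was called in differentiating cells. The ratios of Wnt7b (0.89 and 1.05) and Wnt9a (0.96 and 0.97) stayed close to those above while their calls ended (adjusted p = 0.262 to 0.294). Wnt3 was called in differentiating cells only without proliferating replicate 2, with adjusted p = 0.0553 to 0.541 when differentiating replicate 1 or 2 or proliferating replicate 1, 3 or 4 was left out. Without proliferating replicates 3 and 4 together the 3 calls held, and Sfrp1 and Wnt5b were called in differentiating cells too. From Agilent's processed signals, which carry no added offset, the mean ratio of Wnt9a in differentiating cells was 1.78, and that of Wnt3 was -1.39 in differentiating (adjusted p = 0.0676) and -1.94 in proliferating cells.

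**Figure D1:**
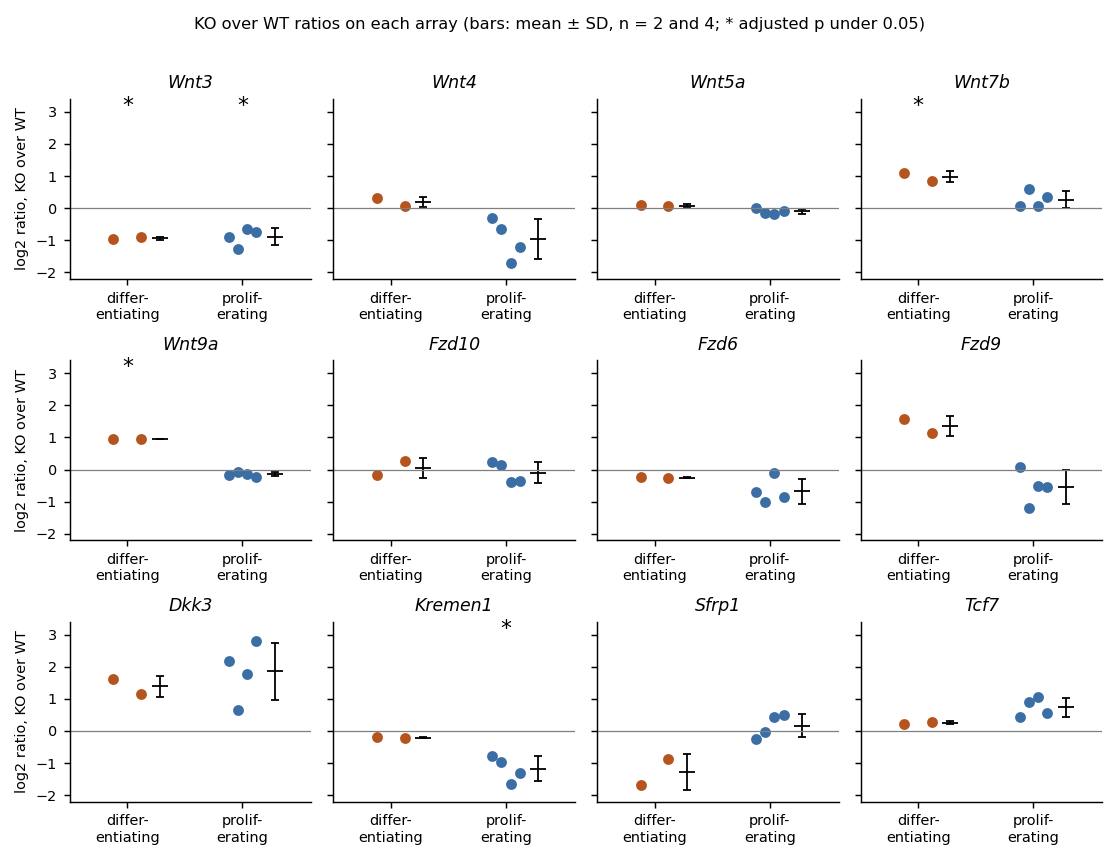
Log2 KO over WT ratio (vertical axis) of 12 Wnt genes on the 2 differentiating arrays (left in each panel) and the 4 proliferating arrays (right); each point is an array, bars are mean ± SD and asterisks mark an adjusted p under 0.05. Wnt3 lay below 0 on all 6 arrays, and Wnt9a lay at 0.96 on both differentiating arrays and below 0 on all proliferating ones.

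In proliferating cells, Wnt3 and the antagonist Kremen1 were lower in KO than in WT cells, and no Wnt gene was called higher. Kremen1 is a membrane receptor for Dkk proteins that helps to remove Lrp6 from the cell surface. Among all genes tested, 0.615% were called higher and 0.338% lower, beside 0 and 2 of the 32 Wnt genes. Of the 32, 9 had an unadjusted p under 0.05, beside 2885 of all 18062 genes tested. The median log2 ratio was 0.02 for the 32 Wnt genes and -0.01 for all genes tested.

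Kremen1 (chr11:5212024-5212083) had log2 ratios of -0.20 and -0.21 on the differentiating arrays, and of -0.78, -0.95, -1.65 and -1.30 on the proliferating ones. All 6 ratios were below 0, and each proliferating array was lower than both differentiating arrays. The mean in proliferating cells was -1.17 ± 0.39 (SD, n = 4), or 2.25-fold lower in KO cells (adjusted p = 0.0444), and in differentiating cells -0.21 ± 0.01 (SD, n = 2; adjusted p = 0.716). This probe is filed under a cDNA accession; the probe filed under the RefSeq transcript of Kremen1 (chr11:5146671-5146730) averaged -0.35 ± 0.26 in proliferating cells (SD, n = 4; adjusted p = 0.235) and 0.05 ± 0.10 in differentiating cells (SD, n = 2). The Kremen1 call held only without proliferating replicate 1 (adjusted p = 0.0353) and ended without proliferating replicate 2, 3 or 4 (adjusted p = 0.0706 to 0.149) and without proliferating replicates 3 and 4 together (log2 ratio -0.86, adjusted p = 0.0592). The Wnt3 call in proliferating cells ended without any of the 4 proliferating arrays (adjusted p = 0.0796 to 0.102) and held without proliferating replicates 3 and 4 together (log2 ratio -1.08, adjusted p = 0.0422). Leaving out a differentiating array does not change the proliferating ratios but gives the fit of the proliferating arrays alone, in which none of the 18062 genes was called (adjusted p = 0.163 for Kremen1 and 0.144 for Wnt3).

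Dkk3, Tcf7, Fzd6 and Wnt4 did not pass in proliferating cells, with unadjusted p-values among the smallest of the Wnt genes. Dkk3, a secreted Dkk family protein (chr7:108032840-108032899), had ratios of 1.62 and 1.16 on the differentiating arrays, and of 2.18, 0.67, 1.78 and 2.80 on the proliferating ones. It was above 0 on all 6 arrays, with the widest spread among these genes. In proliferating cells Dkk3 averaged 1.86 ± 0.90 (SD, n = 4; adjusted p = 0.0917). In differentiating cells Dkk3 averaged 1.39 ± 0.33 (SD, n = 2, adjusted p = 0.222), or 2.63-fold higher in KO. WT cells were not well above background there on either array, so the size of this fold change is uncertain. Tcf7, the transcription factor of the pathway, had ratios of 0.22 and 0.29 on the differentiating arrays, and of 0.43, 0.90, 1.07 and 0.57 on the proliferating ones. These too were above 0 on all 6 arrays, with a mean of 0.74 ± 0.30 in proliferating cells (SD, n = 4; adjusted p = 0.0729). Tcf7 was not well above background in differentiating WT cells and was so on 1 of 2 arrays in differentiating KO cells. A second Tcf7 probe averaged 0.09 ± 0.02 in differentiating and 0.45 ± 0.27 in proliferating cells (SD, n = 2 and 4). The receptor Fzd6 had ratios of -0.24 and -0.26 on the differentiating arrays, and of -0.69, -1.003, -0.12 and -0.86 on the proliferating ones. It was below 0 on all 6 arrays, with a mean of -0.67 ± 0.39 in proliferating cells (SD, n = 4; adjusted p = 0.0921). The ligand Wnt4 had ratios of 0.31 and 0.08 on the differentiating arrays, and of -0.29, -0.64, -1.71 and -1.19 on the proliferating ones. Its sign differed between the conditions, and its mean in proliferating cells was -0.96 ± 0.62 (SD, n = 4; adjusted p = 0.147).

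Whether the KO effect differed between the conditions was tested as the differentiating minus the proliferating log2 ratio. By limma none of the 32 Wnt genes passed, beside 0.0498% of all genes in either direction. Of the 32, 7 had an unadjusted p under 0.05, beside 2178 of all 18062 genes tested. Wnt9a had the smallest p, with a difference of 1.11 (adjusted p = 0.0684). It passed from Agilent's processed signals, from the authors' value table, without the dye term and with array weights, 4 of the settings tried. The others at an unadjusted p under 0.05 were Wnt7b at 0.70 (adjusted p = 0.148), Fzd9 at 1.89 (0.151), Sfrp1 at -1.44 (0.187), Kremen1 at 0.96 (0.255), Wnt5b at 1.36 (0.329) and Wnt4 at 1.15 (0.358). None passed without proliferating replicates 3 and 4 either, and the smallest p was that of Wnt5b (difference 1.94, adjusted p = 0.0569). So the calls above are not shown to belong to a condition. Over single arrays, 6 Wnt genes kept the same sign on all 6 arrays, namely Dkk3, Fzd6, Kremen1, Tcf7, Wnt3 and Wnt7b. In Fzd1, Sfrp5, Wnt4 and Wnt9a, 4 genes in all, the sign on both differentiating arrays was opposite to that on all 4 proliferating arrays. Sfrp5 was well above background on only 1 differentiating array in WT and 1 proliferating array in KO cells. Signs were not counted over all genes tested, so these counts cannot be set against the array.

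Fzd9 and Sfrp1 had large ratios in differentiating cells that did not pass. Fzd9, a Frizzled receptor (chr5:134220225-134220284), had log2 ratios of 1.56 and 1.13 on the differentiating arrays, and of 0.07, -1.20, -0.505 and -0.54 on the proliferating ones. Its only probe is filed under a cDNA, not a RefSeq transcript, so no other probe could be set beside it. The 2 differentiating arrays lay above all 4 proliferating arrays, with means of 1.35 ± 0.31 (SD, n = 2; adjusted p = 0.0725) and -0.54 ± 0.52 (SD, n = 4; adjusted p = 0.276). Sfrp1, a secreted antagonist (chr8:22232957-22233016), had ratios of -1.675 and -0.88 on the differentiating arrays, and of -0.24, -0.04, 0.42 and 0.50 on the proliferating ones. Both differentiating arrays lay below every proliferating array, with means of -1.28 ± 0.56 (SD, n = 2; adjusted p = 0.0689) and 0.16 ± 0.36 (SD, n = 4; adjusted p = 0.748). The second Sfrp1 probe averaged -0.50 ± 0.14 in differentiating cells and 0.09 ± 0.18 in proliferating cells (SD, n = 2 and 4).

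**Figure D2:**
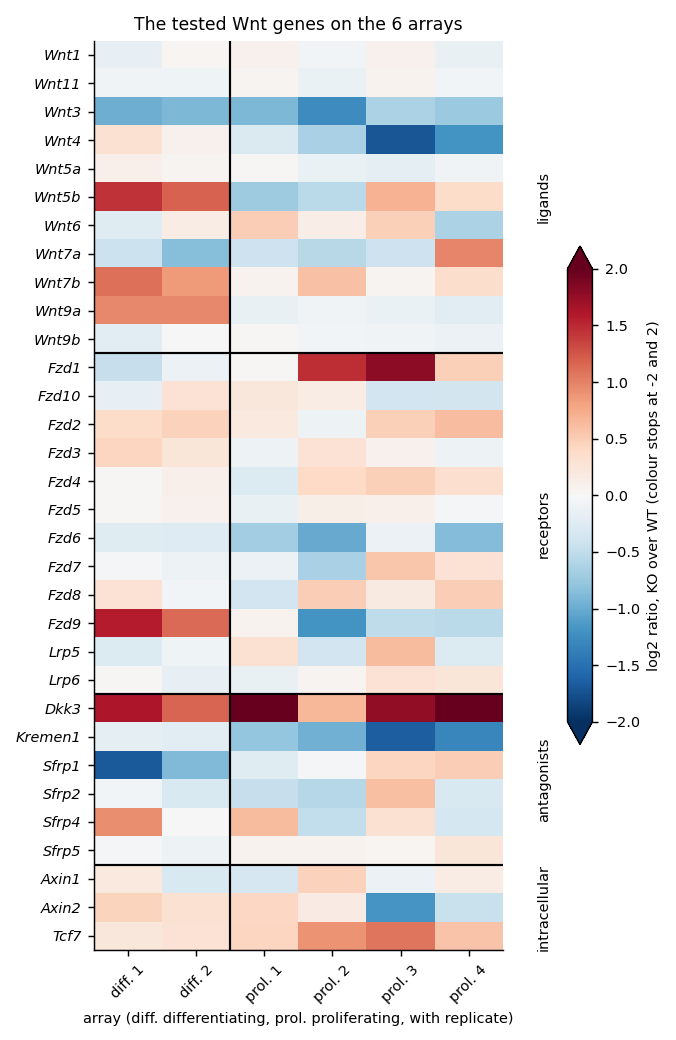
Log2 KO over WT ratio (colour, blue below and red above 0, stopping at -2 and 2) of the 32 tested Wnt genes (rows, by role) on the 2 differentiating and 4 proliferating arrays (columns). Wnt3 and Kremen1 are blue and Dkk3 is red in all 6 columns, and Wnt5b, Wnt9a and Fzd9 are red on both differentiating arrays.

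The response to mitogen withdrawal was read as the differentiating over proliferating change within each genotype, from the signals of the single channels, which are log2 intensities here. The receptor Fzd10 and the ligand Wnt5a were lower in differentiating than in proliferating cells of both genotypes. Wnt9a was higher in KO cells, and in WT cells the antagonist Sfrp1 was higher and the receptor Fzd9 lower. In KO cells 7.68% of all genes were called higher and 6.74% lower, beside 1 and 2 of the 32 Wnt genes. In WT cells 7.41% of all genes were called higher and 6.59% lower, beside 1 and 3 of the 32, so these counts of calls do not set the Wnt genes apart from the array. The fitted change was negative for 23 of 32 Wnt genes in KO and 25 of 32 in WT cells, beside 9043 and 8953 of all 18050 genes. Its median was -0.24 in KO and -0.27 in WT cells, beside -0.001 and 0.005 for all genes. This shift was not tested. The differentiating arrays lie on another slide and in another scan than the proliferating arrays, so that withdrawal and slide cannot be told apart in these changes, and an RNA level of a mixed culture cannot tell fewer cells of a type from less RNA per cell. With withdrawal, Nes changed by -3.02 in KO and -2.19 in WT cells (adjusted p = 0.00190 and 0.00542), and 2 of 7 neuronal markers in KO and 6 of 7 in WT cells were higher (1 and 3 of 7 without proliferating replicates 3 and 4); their part in the Wnt changes was not tested.

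Fzd10 (chr5:127839139-127839198), a Frizzled receptor, had log2 intensities in KO cells of 7.47 and 8.59 when differentiating, against 11.75, 12.06, 12.46 and 9.625 when proliferating. In WT cells it had 7.63 and 8.31 when differentiating, against 11.52, 11.91, 12.84 and 9.99 when proliferating. Differentiating and proliferating cells did not overlap in either genotype, and proliferating replicate 4 was the lowest of the proliferating arrays in both channels. The change was -3.44 ± 0.70 in KO (SE; 10.9-fold lower, adjusted p = 0.0139) and -3.60 ± 0.70 in WT cells (SE; 12.1-fold lower, adjusted p = 0.0114). KO and WT cells did not differ past the threshold for Fzd10, with mean ratios of 0.06 ± 0.31 in differentiating (SD, n = 2; adjusted p = 0.927) and -0.10 ± 0.33 in proliferating cells (SD, n = 4; adjusted p = 0.812). Its second probe changed by -1.98 in KO and -1.83 in WT cells (adjusted p = 0.0599 and 0.0767). The Fzd10 calls held without proliferating replicate 3 or 4, and without both (adjusted p = 0.00760 in KO and 0.00791 in WT cells), and ended without any other array (adjusted p = 0.0544 to 0.168).

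Wnt5a, a ligand known for signalling apart from beta-catenin (chr14:25948244-25952114), had log2 intensities in KO cells of 6.31 and 6.74 when differentiating, against 7.38, 7.125, 7.26 and 7.17 when proliferating. In WT cells it had 6.20 and 6.69 when differentiating, against 7.37, 7.26, 7.43 and 7.24 when proliferating. The conditions did not overlap in either genotype, and in each genotype Wnt5a was well above background on 1 of 2 differentiating and all 4 proliferating arrays. The change was -0.71 ± 0.17 in KO (SE; 1.63-fold lower, adjusted p = 0.0227) and -0.88 ± 0.17 in WT cells (SE; 1.84-fold lower, adjusted p = 0.0105). From Agilent's processed signals, without the offset used here, the change was -1.45 in KO and -1.91 in WT cells. The KO call held only without proliferating replicate 4, and ended without any other array (adjusted p = 0.0712 to 0.205). The WT call ended without differentiating replicate 1 or proliferating replicate 1 or 2 (adjusted p = 0.0522 to 0.162). Without proliferating replicates 3 and 4 together neither held (adjusted p = 0.154 in KO and 0.118 in WT cells).

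Wnt9a had log2 intensities in KO cells of 7.58 and 8.10 when differentiating, against 6.90, 6.42, 6.51 and 7.13 when proliferating. In WT cells it had 6.61 and 7.14 when differentiating, against 7.06, 6.48, 6.65 and 7.35 when proliferating. The conditions did not overlap in KO cells and overlapped in WT cells. Among proliferating arrays, Wnt9a was well above background on 2 of 4 in KO and 3 of 4 in WT cells. The change was 1.099 ± 0.25 in KO cells (SE; 2.14-fold higher, adjusted p = 0.0194) and -0.01 ± 0.25 in WT cells (SE; adjusted p = 0.985), and the test of that difference is the one given above, with adjusted p = 0.0684. From Agilent's processed signals the change in KO cells was 2.23. The KO call held only without proliferating replicate 4 and ended without any other array (adjusted p = 0.0728 to 0.241; 0.0705 without proliferating replicates 3 and 4 together).

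Sfrp1 had log2 intensities in KO cells of 8.39 and 8.34 when differentiating, against 7.35, 7.44, 7.18 and 7.62 when proliferating. In WT cells it had 10.07 and 9.22 when differentiating, against 7.60, 7.48, 6.75 and 7.12 when proliferating. Differentiating cells were above proliferating cells in both genotypes, and the WT values lay above the KO values among differentiating cells. The change was 0.97 ± 0.38 in KO (SE; adjusted p = 0.109) and 2.41 ± 0.38 in WT cells (SE; 5.30-fold higher, adjusted p = 0.00485). The second Sfrp1 probe changed by 0.47 in WT cells (adjusted p = 0.168), and the WT call ended without differentiating replicate 1 (adjusted p = 0.0998) and without proliferating replicates 3 and 4 together (2.06, adjusted p = 0.0868).

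Fzd9 had log2 intensities in KO cells of 11.77 and 12.15 when differentiating, against 12.43, 11.50, 11.55 and 11.13 when proliferating. In WT cells it had 10.21 and 11.01 when differentiating, against 12.35, 12.70, 12.06 and 11.66 when proliferating. The conditions overlapped in KO cells and did not in WT cells. The change was 0.31 ± 0.45 in KO (SE; adjusted p = 0.667) and -1.58 ± 0.45 in WT cells (SE; 2.99-fold lower, adjusted p = 0.0441). The WT call held only without proliferating replicate 4, and ended without any other array (adjusted p = 0.0772 to 0.386; -1.02 without differentiating replicate 1), as it did without proliferating replicates 3 and 4 together (-1.91, adjusted p = 0.251).

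**Figure D3:**
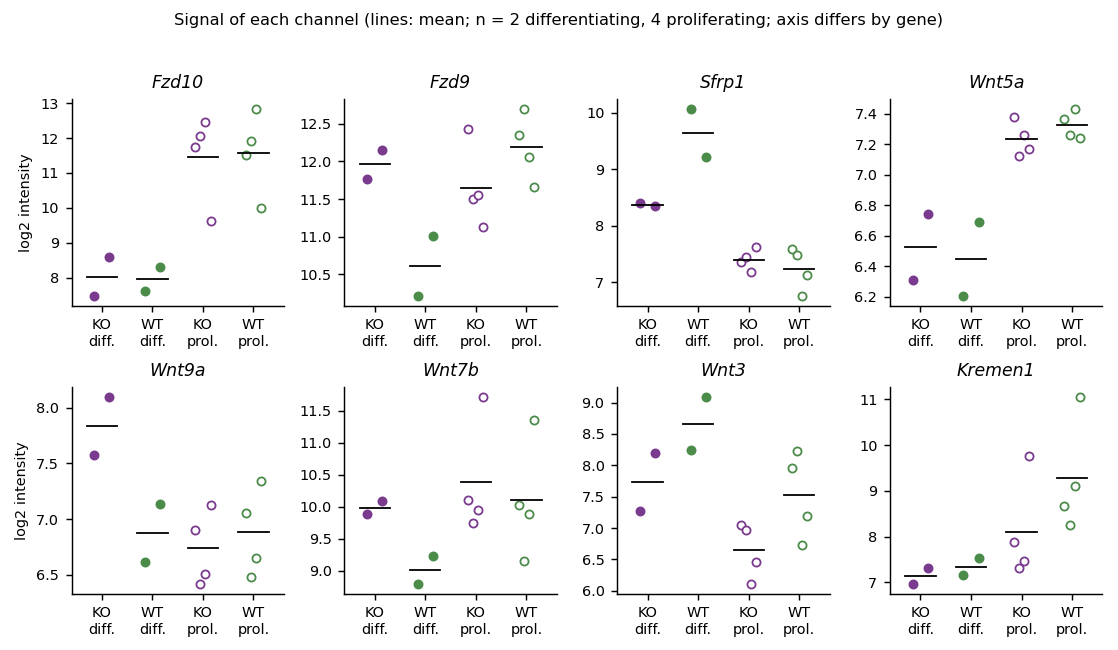
Log2 intensity (vertical axis, its own range in each panel) of 8 Wnt genes in KO and WT channels of differentiating (filled, n = 2) and proliferating cells (open, n = 4), with lines at the means. Fzd10 and Wnt5a were lower in differentiating cells of both genotypes, and Sfrp1 was highest in differentiating WT cells.

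**Figure D4:**
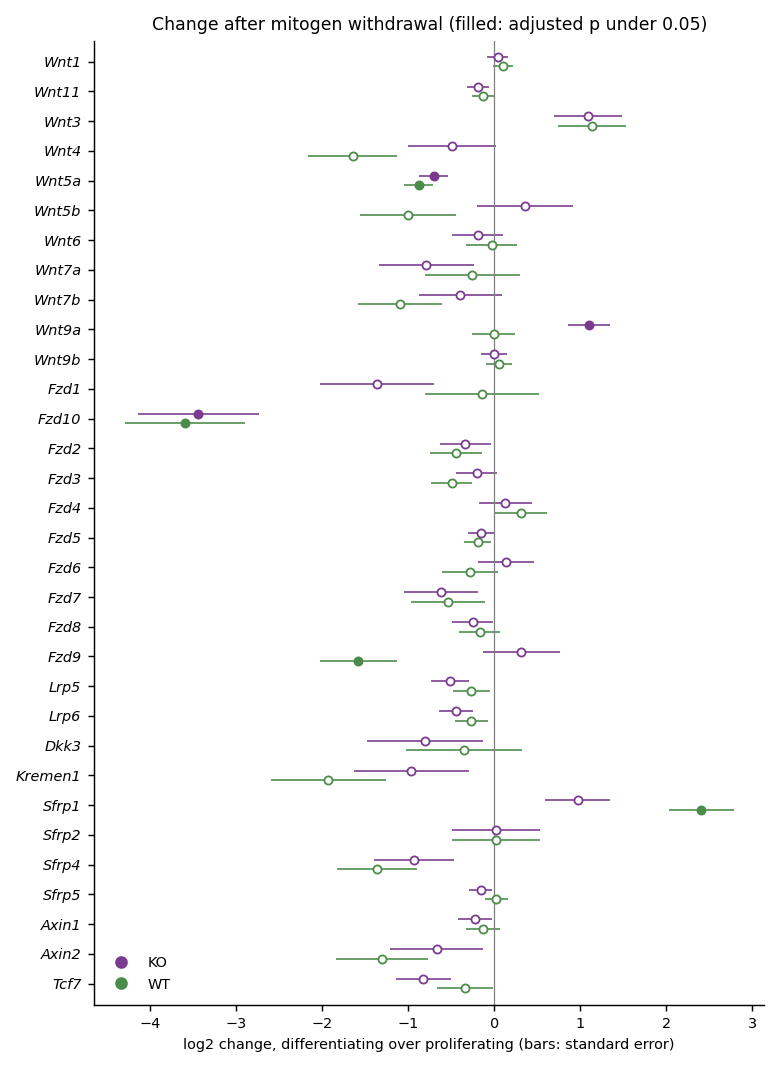
Log2 change, differentiating over proliferating (horizontal axis, with standard errors), of the 32 tested Wnt genes in KO (upper point of each row) and WT cells (lower point); filled points have an adjusted p under 0.05. Fzd10 lay at -3.44 in KO and -3.60 in WT cells, and Sfrp1 at 0.97 in KO and 2.41 in WT cells.

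The remaining 20 tested Wnt genes passed in none of the 5 comparisons. Their log2 KO over WT ratios ran from -0.64 to 1.31 in differentiating cells and from -0.26 to 0.94 in proliferating cells. Both upper ends were single genes. The ligand Wnt5b had 1.45 and 1.18 on the differentiating arrays (adjusted p = 0.148), and -0.72, -0.53, 0.69 and 0.37 on the proliferating ones. A second Wnt5b probe averaged 0.64 ± 0.50 in differentiating and 0.12 ± 0.39 in proliferating cells (SD, n = 2 and 4). The receptor Fzd1 had -0.46 and -0.12 on the differentiating arrays, and 0.02, 1.47, 1.78 and 0.47 on the proliferating ones (adjusted p = 0.247). The lower end in differentiating cells was the ligand Wnt7a, with -0.42 and -0.85 (adjusted p = 0.418). On the proliferating arrays Wnt7a had -0.41, -0.56, -0.42 and 0.98, so that replicate 4 stood apart from the other arrays.

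Among the other receptors, Fzd2, Fzd3, Fzd4, Fzd5, Fzd7 and Fzd8 and the co-receptors Lrp5 and Lrp6 had mean ratios between -0.17 and 0.41 in differentiating and between 0.01 and 0.30 in proliferating cells. Lrp6 was not well above background in differentiating cells of either genotype, and Fzd5 not in differentiating KO cells. The ligands Wnt1, Wnt6, Wnt9b and Wnt11 and the antagonists Sfrp2, Sfrp4 and Sfrp5 had mean ratios between -0.19 and 0.46 in differentiating and between -0.19 and 0.12 in proliferating cells. Axin1, the scaffold of the destruction complex, averaged -0.06 ± 0.35 in differentiating (SD, n = 2) and 0.04 ± 0.34 in proliferating cells (SD, n = 4). Axin2, which is both a scaffold and a widely used target gene of the pathway, had ratios of 0.45 and 0.30 on the differentiating arrays, and of 0.41, 0.16, -1.17 and -0.44 on the proliferating ones. Its sign varied among the proliferating arrays, and it passed in neither condition (adjusted p = 0.697 in differentiating and 0.702 in proliferating cells).

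Other genes of the pathway were read from 4 lists that leave out the 46 genes. Of the list of secretion factors, agonists and other extracellular regulators, 17 genes were tested, counting Wls, the carrier of Wnt proteins to the cell surface, and its older name Gpr177, which label separate probes, as 2. Only Gpc3, a glypican that binds Wnt ligands, was called, and it was higher in both conditions. Its log2 ratios were 0.70 and 0.92 on the differentiating arrays, and 0.82, 0.33, 0.85 and 0.64 on the proliferating ones. All 6 ratios were above 0 (means 0.81 and 0.66, adjusted p = 0.0288 in differentiating and 0.0333 in proliferating cells). Without proliferating replicates 3 and 4 it was called in differentiating cells (adjusted p = 0.0331) and not in proliferating cells (0.57, adjusted p = 0.157). In that fit Wls was also higher (1.44, adjusted p = 0.015) and Ndp lower (-0.74, adjusted p = 0.0372) in differentiating KO cells, and the Gpr177 probe was not called. That fit called 644 genes higher and 326 lower of 18062 in differentiating cells. With all arrays, 2.18% of all genes were called higher in differentiating and 0.615% in proliferating cells, beside 1 of 17 in each. The list's median log2 ratio was -0.06 in differentiating and -0.12 in proliferating cells, beside -0.01 in each for all genes tested.

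Of 18 tested co-receptor and planar cell polarity genes, the pathway branch that orients cells in a sheet, Prickle1 and Daam2 were higher and Celsr3 was lower in differentiating KO cells, and none was called in proliferating cells. Beside these 2 and 1 of 18, 2.18% of all genes were called higher and 0.902% lower in differentiating cells. Prickle1, a core polarity protein, had ratios of 2.10 and 2.45 on the differentiating arrays (adjusted p = 0.0147), and of 0.24, 0.29, 0.72 and 0.90 on the proliferating ones (adjusted p = 0.163). It was above 0 on all 6 arrays, and higher on the differentiating ones. Daam2, a formin, had ratios of 0.285 and 0.89 on the differentiating arrays (adjusted p = 0.0412). Celsr3, a polarity cadherin of neurons, had -0.58 and -0.60 on them (adjusted p = 0.0421). Prickle1 was also called without proliferating replicates 3 and 4 (adjusted p = 0.00452), and Daam2 (0.0650) and Celsr3 (0.0625) were not. Vangl2 was called higher in differentiating KO cells in that fit (1.09, adjusted p = 0.0409), and not with all arrays (adjusted p = 0.0559). The list's median was 0.15 in differentiating and 0.01 in proliferating cells.

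With all arrays, none of 32 tested beta-catenin pathway genes inside the cell was called between KO and WT in either condition. The same held for 18 tested known target genes. In the first list the smallest p-values belonged to the co-repressor Tle1 (-0.71 in proliferating cells, adjusted p = 0.107) and to Apc of the destruction complex (-0.70 and -0.54 on the differentiating arrays, adjusted p = 0.0772). In the second they belonged to Sox9 (-0.79 and -0.89 on the differentiating arrays, adjusted p = 0.0619), which is also a stem cell marker, and to Nkd2, a feedback inhibitor (0.60 and 0.68, adjusted p = 0.0741). The median ratio was -0.11 in differentiating and 0.03 in proliferating cells for the first list, and 0.06 and 0.13 for the second. Widely used targets such as Ccnd1 (0.71 and 0.76 on the differentiating arrays) and Myc (-0.66 and -0.52) did not pass either (adjusted p = 0.157 and 0.245). Both lists were also refitted without the proliferating arrays on which the sex-linked genes differed between the channels. In that fit Cxxc4 of the first list was called lower in differentiating KO cells (-0.84, adjusted p = 0.026, against 0.191 with all arrays). No other gene of either list was called between KO and WT there.

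After mitogen withdrawal, the genes of these lists that passed are named here because they passed. They were 5 higher and 8 lower of 85 tested in KO cells, and 4 higher and 7 lower of 85 in WT cells, which is near the shares of all genes (7.68% and 6.74% in KO, 7.41% and 6.59% in WT cells). Without proliferating replicates 3 and 4 they were 1 higher and 3 lower in KO cells, and 0 higher and 3 lower in WT cells. The counts over all genes fell in that fit too, to 590 higher and 622 lower in KO cells and 424 higher and 548 lower in WT cells. In KO cells they were Prickle1, Rhou, Nkd2, Fgf18 and Tpbg, which were higher, and Ptk7, Celsr2, Ccnd1, Ccnd2, Gsk3b, Frat1, Znrf3 and Tspan12, which were lower. In WT cells they were Prickle1, Celsr3, Csnk1d and Tcf7l2, which were higher, and Ptk7, Vangl1, Ccnd1, Ccnd2, Gsk3b, Frat1 and Znrf3, which were lower. The cyclin Ccnd1 changed by -3.23 in KO and -3.35 in WT cells (adjusted p = 0.0358 and 0.0327). Prickle1 changed by 3.01 in KO and 1.28 in WT cells (adjusted p = 0.00161 and 0.0354; 0.00970 and 0.111 without proliferating replicates 3 and 4).

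**Figure D5:**
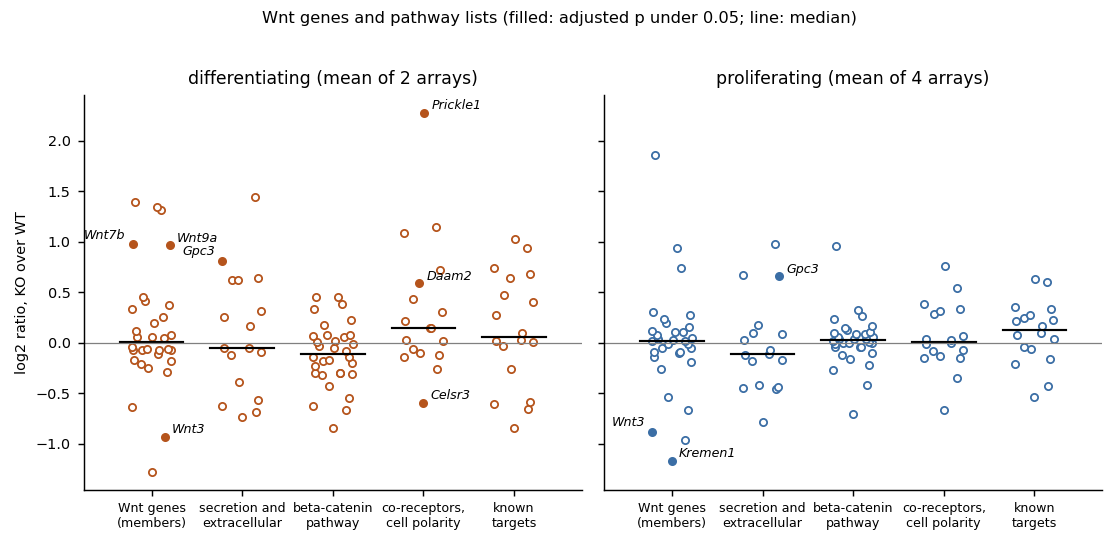
Mean log2 KO over WT ratio (vertical axis) of each tested Wnt gene and of each tested gene of the 4 pathway lists, in differentiating (left panel) and proliferating cells (right panel); lines are medians and filled, named points have an adjusted p under 0.05. Every median lies between -0.12 and 0.15.

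The cultures of KO and WT cells also differed in markers of cell types, and the part of these differences in the Wnt results was not tested. Of all genes, 2.18% were called higher and 0.902% lower in differentiating KO cells, and 0.615% and 0.338% in proliferating KO cells. The marker calls between KO and WT named here all held without proliferating replicates 3 and 4, and in that fit Dcx and Pax6 were also lower and Gfap, S100b, Mbp, Kdr and Col1a1 also higher in differentiating KO cells. In differentiating cells, 4 of 7 neuronal markers (Tubb3, Map2, Snap25, Syt1) were lower in KO cells, with a summed signal of 10221 to 11383 in KO, against 21759 to 24227 in WT cells. In proliferating cells none passed, with sums of 6040 to 9323 in KO, against 8374 to 9555 in WT cells. Of 9 oligodendroglial markers, Sox10 and Mag were higher in differentiating KO cells (sums of 106135 to 107788, against 35673 to 44730 in WT) and Sox10 in proliferating KO cells (50745 to 90691, against 38894 to 72467 in WT). Of 10 Schwann cell and neural crest markers, 3 were higher in differentiating KO cells (Sox10, Erbb3, Pou3f1; sums of 15610 to 16243, against 4643 to 5249 in WT) and 3 in proliferating KO cells (Sox10, Dhh, Pou3f1; 13195 to 48816, against 3919 to 7733 in WT). The neural crest factor Foxd3 of this list passed in neither condition.

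Of 6 astroglial markers, Aqp4 was higher in differentiating KO cells (sums of 75119 to 98515, against 63392 to 66427 in WT), and none passed in proliferating cells (50913 to 69963, against 30219 to 59639 in WT). Of 4 ependymal markers, Foxj1, Mlf1 and Dnahc9 were higher in differentiating KO cells (2136 to 3518, against 1150 to 1235 in WT), and none passed in proliferating cells (2224 to 4117, against 1336 to 4129 in WT). None of 10 stem and progenitor markers passed in either condition (123138 to 125871 in differentiating KO, against 154814 to 192069 in differentiating WT cells; 131398 to 190212 in proliferating KO, against 172141 to 207947 in proliferating WT cells). Of 4 choroid plexus markers, Folr1 was higher in differentiating KO cells and Ttr and Kl did not pass the filter on dim probes. Of the 6 microglial markers all but Cd68 failed that filter, and none of the microglial, endothelial and mural, or fibroblast and meningeal markers that were tested passed between KO and WT in either condition. Cdh5, Tek, Cldn5 and Rgs5 of the endothelial and mural list and Col3a1, Dcn and Lum of the fibroblast list also failed the filter.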

How the data were processed

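RNA of KO and WT cells was hybridised in opposite dyes on 2 arrays of differentiating and 4 of proliferating cells, with the dyes swapped on 1 and 2 of them. The deposited intensity values are mean spot and median background signals from Agilent Feature Extraction 9.5.1.1, per the file headers. The deposited log10 ratios of Cy5 over Cy3 come from signals that Feature Extraction had background-subtracted and dye-normalized, per the file headers. Against these, values in the deposited table of the authors had a correlation of 1 on arrays with KO in Cy5 and of -1 on arrays with KO in Cy3 (column medians 0), so that table already runs as log10 KO over WT; it served, turned to log2, as an alternative. Probe positions are those of the file columns (mm7).

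Background was corrected with normexp (offset 50), which shrinks the ratios of dim probes, and the ratios were loess-normalized in limma 3.58.1 (R 4.3.3). Control spots (1639 per array) and 859 outlier spots were left out. Genes were named through RefSeq accessions for 22951 of 41174 probes, and 18223 kept the file's name. One fit over all 6 arrays with a dye term (3 residual and 2.57 prior degrees of freedom) gave the KO over WT ratios of 18062 genes. A separate-channel fit after Aquantile normalization (intraspot correlation 0.763, statmod 1.5.0) gave the withdrawal changes of 18050 genes. P-values are 2-sided and adjusted over all genes by Benjamini-Hochberg, with 0.05 as threshold. Both fits were tested on simulated data.

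The Wnt genes and all lists were chosen with earlier results of these data known. Given in full are the genes that passed in at least 1 of 5 comparisons and those of smallest p up to 12; of each list, those that passed between KO and WT or else the 2 of smallest p. The alternatives were other background correction, normalization, filters, dye and replicate terms, weights, probes and left-out arrays.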

Additional observations from a re-analysis of the deposited data

Results flagged for a closer look

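In 2 of 32 Wnt genes, 1 proliferating array lay far from the other 3 by Dixon's test, which chance does in about 1 group in 20. Wnt7a had a log2 KO over WT ratio of 0.977 on proliferating replicate 4, against -0.41, -0.56 and -0.42 on replicates 1 to 3. Sfrp5 had a ratio of 0.247 on proliferating replicate 4, against 0.07, 0.07 and 0.04 on replicates 1 to 3. Proliferating replicate 4 is also 1 of the 2 arrays on which Xist and Ddx3y differed between the channels, and the part of this in either ratio was not tested.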

How the results depend on the processing

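No direction of a called Wnt gene was reversed in the 158 values recomputed under other settings, but 70 of them no longer passed. In proliferating cells 2 Wnt genes were called between KO and WT, against 1 with median centring, 0 without the filter on dim probes, 4 without the dye term, 0 with the proliferating arrays fitted alone, 1 without proliferating replicates 3 and 4 together, and 0 to 1 with an array left out. In differentiating cells the 3 calls became 1 with median centring, 5 without proliferating replicates 3 and 4, 6 when arrays were weighted by quality, 8 in a fit of these 2 arrays by themselves with no dye term (a setting chosen after seeing the data), and 0 to 4 with an array left out. For the difference of the KO effects, 0 calls became 1, Wnt9a, from Agilent's processed signals, from the authors' value table, without the dye term and with array weights, and stayed at 0 to 0 with an array left out. For withdrawal, 3 calls in KO and 4 in WT cells became 1 and 1 without proliferating replicates 3 and 4, and 0 to 5 and 0 to 6 with an array left out. The counts over all genes shifted in these settings too, but not always in the same direction. In proliferating cells, against 172, they were 135 with median centring, 101 without the filter on dim probes and 237 without the dye term. They were 0 with the proliferating arrays fitted alone. Without proliferating replicates 3 and 4 they rose to 214 while the Wnt count fell. In differentiating cells, against 557, the counts over all genes were 285 with median centring and 970 without proliferating replicates 3 and 4. With array weights they were 2112, and in the fit of the 2 differentiating arrays by themselves 1586. For the difference, against 9, they ran from 24 without the dye term to 153 with array weights in the settings that called Wnt9a. The cause of these shifts was not tested. Refitting the pathway lists and markers without proliferating replicates 3 and 4 was also chosen after seeing the data. With the replicate block the counts of Wnt genes between KO and WT were 2 in proliferating and 3 in differentiating cells and 0 for the difference (consensus correlation 0.0523). Same-numbered arrays deviated with r = -0.369 and -0.288. They also had KO in opposite dyes, and the dye was not taken out of these deviations. The check therefore cannot show whether the numbers pair the samples. Over all genes, the counts ran from 0 to 2112 in differentiating cells (557 as reported), 0 to 278 in proliferating cells (172), 0 to 153 for the difference (9), 132 to 4635 for withdrawal in KO (2604) and 161 to 3735 in WT cells (2528). No fit with slide or scan as a block could be made, since all arrays of a condition share 1 of each. Dim probes such as those of Wnt5a, Wnt9a, Dkk3 and Tcf7 lie near background, where the offset lowers the fold change.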
